A study of Homo sapiens with 9 samples.

Results

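Total RNA of HEK293 cells carrying the control short hairpin NC5 (CTL) was labelled with Cy3 and measured on one-color expression arrays of Agilent. These cells are the untargeted arm of an SmcHD1 knock-down experiment, and the values below describe which gene families and tissue genes they expressed or left silent. The 3 arrays titled with shRNA NC5 were taken from 9 arrays in all, the others being 3 of cells with shRNA 3 (KD3) and 3 of cells with shRNA 4 (KD4), both directed at SmcHD1. HEK293 is a line derived from human embryonic kidney and transformed with a piece of adenovirus DNA. The paper's list of cell lines names HEK293T, while its account of the infection names HEK293, so which of them was measured is not clear. All groups were infected with a retroviral pQCXIP-GFP vector, selected with puromycin and grown in DMEM with fetal bovine serum, so every value stems from infected, selected, proliferating cells and none from untouched HEK293. Each group was a selected population, not a clone, and the methods call the arrays biological triplicates without saying whether they came from separate infections. P-values therefore measure the spread between these arrays, which may be partly technical.

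The hairpin insert of the CTL cells is shown because it is the element in which the design sets them apart from the knock-down cells. It is printed as the labels give it, 5′ to 3′, with the loop between its arms in capitals.
NC5: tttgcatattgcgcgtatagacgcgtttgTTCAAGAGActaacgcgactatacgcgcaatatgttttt

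A cultured line keeps a core of genes that every dividing cell needs, such as those for ribosomes, proteasomes and the cytoskeleton, and a remnant of the lineage it came from. The embryonic kidney forms its nephrons from mesenchyme that turns into epithelium under regulators such as PAX2, SALL1 and SIX2. The tissue sits beside the adrenal gland and is crossed by neural crest cells, and a neuronal or adrenal character of HEK293 has been proposed from its intermediate filaments and other genes. Genes of terminally differentiated cells, such as albumin or globins, are kept off in most lines.

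On the CTL arrays, 76.4% to 79.3% of the 42405 non-control probes were well above background, the flag that the scanner software gives to spots clearly brighter than their surroundings. The arrays correlated with each other at r = 0.995 to 0.996 over the probes tested below. No spot of the 285 to 287 negative control spots per CTL array was well above background, but 17.6% to 21.8% of the spots for ERCC control transcripts, whose sequences are not human, were. The addition of an ERCC mix is not given in the sources used here. SMCHD1 itself was measured by 3 probes, and the brightest of them read 11.14, 11.27 and 11.14 on the CTL arrays. It fell by 0.96 in KD3 (adjusted p = 0.000164, limma) and by 1.54 in KD4 (adjusted p = 1.28e-05), and all 6 knock-down arrays lay below all 3 CTL arrays.

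The level of a gene is here the mean log2 signal of its brightest probe over the 3 CTL arrays, from the table normalized by the authors, and values after ± are SDs over these 3 arrays. A probe's brightness depends on its sequence as well as on the amount of RNA, so an order of genes by level is an order of brightness and not of abundance. Precision is limited by having 3 arrays in a group. In such bulk RNA a low level in every cell and a high level in few cells cannot be told apart. A gene was taken as detected when a probe was well above background on all 3 CTL arrays and as silent when no probe was so on any. Because some ERCC probes passed that flag, detected genes were divided further. They were called bright when a detected probe exceeded 6.33, the level of the brightest of the 96 ERCC control probes (SD 0.446), and dim when none did. This division was chosen after seeing the data and rests on a single probe, since the next ERCC probe lay at 5.26 and 95% of them lay below 4.78. Above that lower level were 14721 genes, against 12810 bright ones, so the counts of bright genes below depend on this probe.

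Of the 19483 genes with a named probe, 15833 (81.3%) were detected in CTL cells, 2618 (13.4%) were silent and 1032 were detected on 1 or 2 arrays. Among 18100 protein-coding genes, 67.6% were bright, 2710 genes were dim and 12.5% silent. The other named genes, mostly non-coding, were bright in 42.2% and silent in 26.3% of 1383 cases. Long intergenic non-coding RNA probes passed the detection flag in 67.4% of 8263 cases, but only 33.8% exceeded the ERCC level, against 65.2% of the probes for coding genes. The median coding gene lay at 8.70, and silent probes lay between 1.13 and 3.47.

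**Figure D1:**
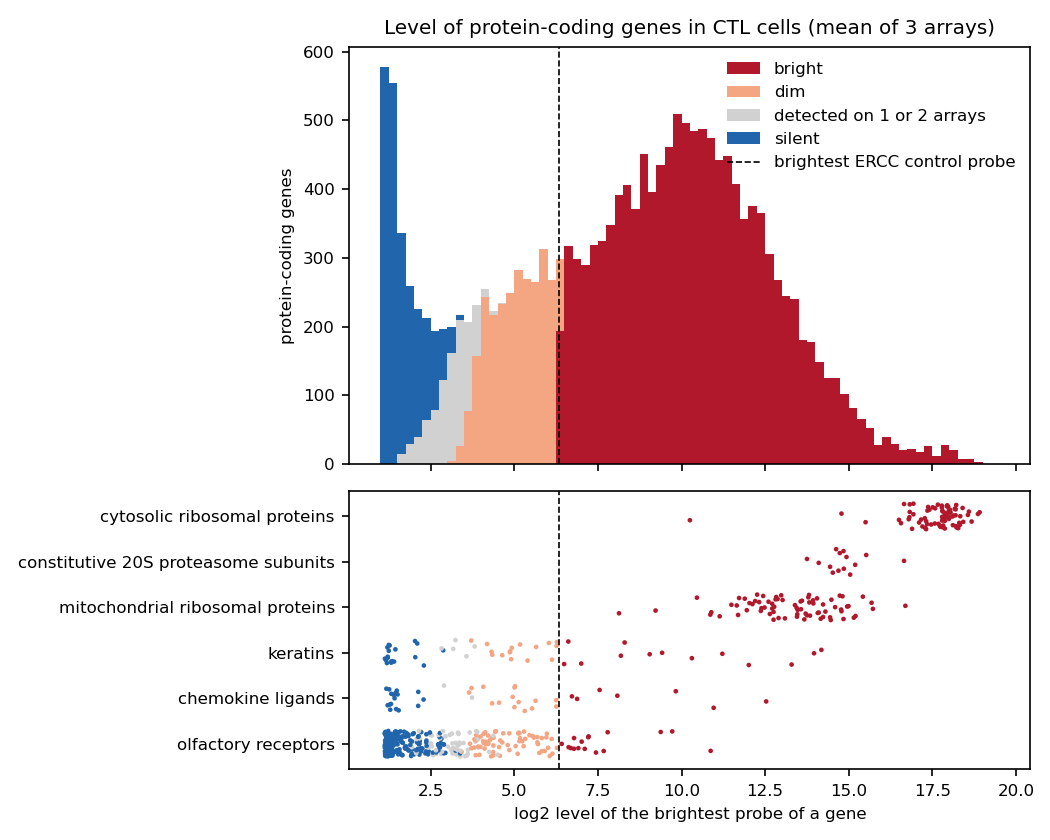
Upper panel: number of protein-coding genes (y axis) by log2 level of the brightest probe (x axis), the mean of 3 CTL arrays, coloured by detection class. The dashed line is the brightest ERCC control probe at 6.33. Lower panel: each point is a gene of the named list; the cytosolic ribosomal protein genes all lie above 10, and most of the 353 olfactory receptor genes lie below the line.

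The brightest genes of the CTL cells were those of the cytosolic ribosome, which makes up a large share of the messenger RNA of growing cells. Of the 25 brightest genes, 14 encode cytosolic ribosomal proteins, and of the 100 brightest, 56 do. All 78 genes of this list were bright, with a median level of 17.8 and a range from 10.3 to 18.9. RPS2 of the small subunit read 18.86, 18.86 and 18.86 on the 3 arrays. The RPS2 values are equal because quantile normalization gives the probe of equal rank the same value on every array. RPL23A (18.67 ± 0.0357), RPL23 (18.42 ± 0.0382) and RPLP1 (18.56 ± 0.0699) of the large subunit followed at similar brightness. The other names among the 25 include H4C3, a replication-dependent histone H4 gene (18.59 ± 0.0255), MIF, a cytokine-like protein found in most cells (18.20 ± 0.0467), and the small non-coding RNA SNAR-A3 (19.25 ± 0), which was the brightest of all.

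Transcripts of ribosomal proteins and elongation factors typically start with a C followed by a run of pyrimidines, the 5′ terminal oligopyrimidine (TOP) motif, through which growth signals control their translation. RefSeq promoter sequences of assembly GRCh38.p14 were matched for 62 of the 78 ribosomal protein genes. In 42 of these (67.7%) the annotated start was a C followed by at least 4 pyrimidines, against 4.73% of the 14544 coding genes on the array with a promoter sequence and 4.04% of all 27305 promoters in the table. Coding genes with a level above 14, a set that includes most of these ribosomal protein genes, held such a start in 13.8% of 811 promoters. Of 27 translation factor genes with a sequence, 8 held it. The windows below run from 10 bases before to 15 bases from the annotated start, on the gene's strand, with the unbroken pyrimidine run from the start in capitals. They show 6 of the brightest genes with the motif and RPS4X, whose annotated start has none.
RPS10, chr6:34426055-34426079, minus strand: catgctccttCCTTTCCagccccgg
RPLP1, chr15:69452808-69452832, plus strand: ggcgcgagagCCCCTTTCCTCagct
RPS21, chr20:62387093-62387117, plus strand: ctagctgcttCCTTTCTCTCTCgcg
RPL38, chr17:74203668-74203692, plus strand: aagtctcgttCTTTTTCgtcctttt
RPL13A, chr19:49487598-49487622, plus strand: aaacctcctcCTTTTCCaagcggct
RPL7A, chr9:133348208-133348232, plus strand: attccctttcCTTTCTCTCTCCTCC
RPS4X, chrX:72277234-72277258, minus strand: ctccagccccaatttctacgcgcac
RPS4X read 18.20, 18.20 and 18.22 and RPL38 read 18.35, 18.31 and 18.32, so genes with and without an annotated TOP start lay side by side in brightness. A start that lacks these letters says only that this annotated position does not hold them.

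Other machinery of protein synthesis, folding and breakdown was detected almost without gap. All 35 measured translation elongation and initiation factors were bright, led by EEF1A1, which brings aminoacyl-tRNA to the ribosome (18.17 ± 0.0536), and EIF1, which guards start codon choice (17.30 ± 0.0767). All 8 subunits of the CCT chaperonin, which folds actin and tubulin, were bright, from CCT5 at 8.84 ± 0.0825 to CCT4 at 17.35 ± 0.065. All 14 constitutive subunits of the 20S proteasome were bright with levels from 13.8 to 16.7, and 19 of 20 genes of its 19S cap were. All 12 RNA polymerase II subunit genes and 32 of 33 splicing factor genes were bright as well.

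Relatives of these genes with tissue-restricted roles were detected less evenly. Among the specialised proteasome subunits, the immunoproteasome subunit genes PSMB10 (13.14 ± 0.104) and PSMB9 (9.25 ± 0.135) were bright. PSMB8, the remaining immunoproteasome subunit, was detected on only some arrays (3.58, 3.35 and 3.70), the thymus subunit PSMB11 was dim (4.63 ± 0.56) and the testis subunit PSMA8 was silent (2.35 ± 0.334). Of the chaperonin paralogs with testis expression, CCT6B was bright at 7.79 ± 0.343 and CCT8L2 was silent at 2.32 ± 0.572. Among ribosomal protein paralogs, RPL10L, RPS27L, RPL26L1, RPL22L1 and RPL39L were bright, with levels from 8.10 to 15, and only the muscle paralog RPL3L was dim (5.85 ± 0.271). Paralog probes may also bind the transcripts of the parent gene, so these levels are uncertain.

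All 76 measured genes of the mitochondrial ribosome were bright, with a median of 13.5, led by MRPS16 (16.69 ± 0.0773), MRPS24 (15.72 ± 0.0439) and MRPL51 (15.68 ± 0.0934). Their promoters held the letters AAGATGGCG, which resemble the site of the factor YY1, on either strand in 17.7% of 68 sequences, against 2.92% of the coding genes on the array and 1.85% of all promoters in the table. They held CCGGAAGT, the core of ETS family sites, in 16.2%, against 6.49% and 4.44%. These matches are a description and not evidence of binding, and the first overlaps the letters of a start codon. The windows below show the match, in capitals, with 8 bases on each side on the gene's strand, for the 3 brightest such genes that hold it on that strand, MRPS18B and MRPL52 being named for this reason only.
MRPS24, chr7:43869482-43869506, minus strand: cttggcccAAGATGGCGgcctccgt
MRPS18B, chr6:30617855-30617879, plus strand: cgtacgtcAAGATGGCGgcgtctgt
MRPL52, chr14:22829781-22829805, plus strand: gatgacccAAGATGGCGgagccgtg
The match began 20 bases from the annotated start in MRPS24 and 24 bases from it in MRPS18B, inside the transcript, and 98 bases before it in MRPL52.

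The kidney lists separated into developmental regulators and podocyte genes on one side and tubule transporters on the other. Of 36 regulators of kidney development, 24 (66.7%) were bright, close to the 67.6% of all coding genes, and 6 were silent. LHX1, a LIM-homeobox factor needed for nephron formation, read 12.77, 12.79 and 12.83 on the 3 arrays. PAX2, which marks the nephron progenitor and its epithelial offspring, read 10.79, 11 and 10.85, and SALL1 of the progenitor read 9.02, 9.22 and 8.92. BMP7, a growth factor that sustains the progenitors (13.82 ± 0.0392), SALL2 (12.81 ± 0.0273), FOXD1 of the stromal progenitor (12.45 ± 0.0292) and IRX3 (11.84 ± 0.091) were bright too. SIX2, the defining factor of the self-renewing progenitor, was barely above the ERCC level at 6.72 ± 0.232. PAX8 (4.66 ± 0.173) and WT1 (4.89 ± 0.0535), which also define this list, stayed below the ERCC level although the line is labelled as embryonic kidney.

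All 11 podocyte genes were detected and 8 were bright. PODXL, a sialomucin of the podocyte surface that stem cells also carry (12.93 ± 0.0823), and the channel TRPC6 (11.76 ± 0.0839) were among the brightest. NPHS1, nephrin of the slit diaphragm, was dim at 5.65 ± 0.0832. Of 24 proximal tubule genes, only 6 were bright and 7 were silent. LRP2, the endocytic receptor megalin, read 11.18, 10.99 and 11.32, and its partner AMN read 9.59 ± 0.0803. CUBN, with which both of these work in the tubule, was silent at 1.68 ± 0.234, as was the anion transporter SLC22A6 (1.71 ± 0.291), and the phosphate transporter SLC34A1 was dim (5.17 ± 0.224). In the loop of Henle and distal tubule list 4 of 14 genes were bright, including UMOD, uromodulin, at 7.61 ± 0.0459 and CLDN19 at 10.24 ± 0.164. The CLDN19 value rests on 1 of 2 probes, since the other read 4.08. The salt carriers SLC12A1 (1.63 ± 0.496, silent) and SLC12A3 (3.38 ± 0.424, detected on 1 array) were missing. Of 17 collecting duct genes 4 were bright, while the water channel AQP2 was detected on 1 array (2.80, 2.19 and 2.67) and the intercalated cell proton pump subunit ATP6V1B1 was silent (2.43 ± 0.497). ACE (8.79 ± 0.311) and CYP27B1, which activates vitamin D (8.16 ± 0.0722), were bright among 7 renal endocrine genes. EPO was detected on only some arrays (3.46, 2.88 and 3.36) and KL was silent (1.54 ± 0.378).

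**Figure D2:**
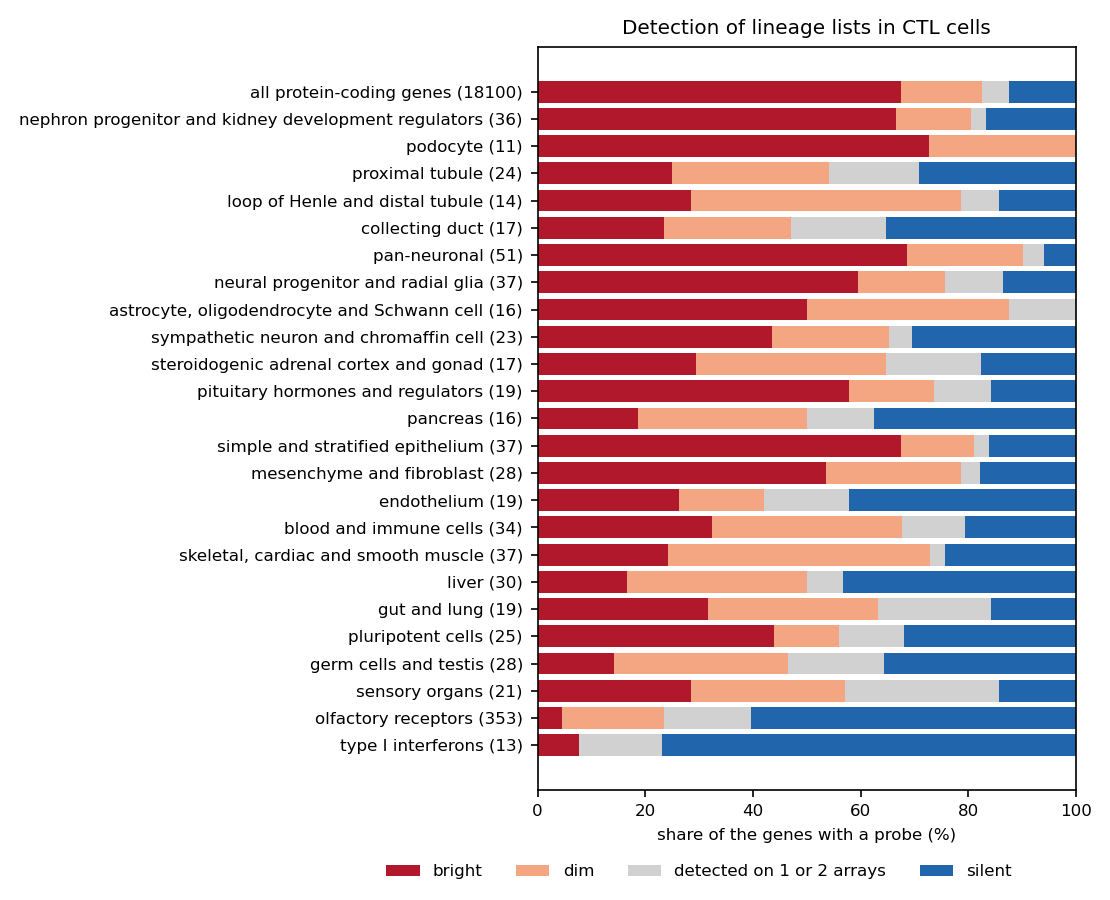
Share of the genes with a probe (x axis, percent) in each detection class for all protein-coding genes and 24 lists (y axis, number of genes with a probe in brackets). Kidney regulators (66.7% bright), pan-neuronal genes and epithelial genes lie near the coding genes (67.6%). Lists far below include the kidney lists of collecting duct (23.5%) and proximal tubule (25%), and pancreas, liver, endothelium, olfactory receptors and type I interferons.

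Of 51 pan-neuronal genes, 35 (68.6%) were bright and 3 silent, a share close to the 67.6% of all coding genes. UCHL1, a ubiquitin hydrolase abundant in neurons, read 17.22, 17.20 and 17.01, and STMN1 (15.52 ± 0.0498), DPYSL5 (13.39 ± 0.0676), DPYSL3 (12.70 ± 0.222) and TUBB3, neuronal beta-tubulin (11.41 ± 0.0472), followed. The synaptic genes SNAP25 (9.09 ± 0.104) and SYT1 (7.44 ± 0.35), the dendritic MAP2 (8.47 ± 0.432) and RBFOX3, the neuronal nuclear antigen NeuN (8.42 ± 0.0872), were bright. Other neuron-specific genes were not, with DCX at 5.27 ± 0.0971, STMN2 at 4.97 ± 0.0766 and ELAVL4 at 4.09 ± 0.275, all dim, and ELAVL3 silent (1.22, 1.16 and 1.33). Neurofilament genes were uneven. NEFL read 12.62, 12.73 and 12.81, NEFH read 9.94, 10.06 and 9.87 and NEFM read 5.29, 5.21 and 5.92, which places the light and heavy chains above the ERCC level on every array and the medium chain below it. The related filament genes INA (8.93 ± 0.0815) and PRPH, peripherin (10.61 ± 0.0917), were bright, and GFAP of astrocytes was detected on 1 array only (3.34 ± 0.299).

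In the list of neural progenitors and radial glia, 22 of 37 genes (59.5%) were bright and 5 silent. SOX2, a factor of neural and pluripotent stem cells, read 11.67, 11.79 and 11.69 and PAX6 read 10.07, 10.28 and 10.23. EN2, a factor of the midbrain and hindbrain, was the brightest of the list at 14.74 ± 0.145, and the ventral forebrain factors DLX2 (12.49 ± 0.137) and DLX1 (10.93 ± 0.101) were bright. The proneural factor NEUROG2 (5.81 ± 0.39) and the oligodendrocyte factor OLIG2 (6 ± 0.324) were dim, and NES, nestin, was bright at 7.32 ± 0.174. Factors of different brain regions were thus detected together. The glial list had 8 bright genes of 16 and no silent one. The myelin gene CNP (15.57 ± 0.0109), also used outside glia, was its brightest, MBP (10.26 ± 0.0788) and MOG (8.21 ± 0.108) were bright by 1 of 3 and 1 of 2 probes, and SOX10, the glial and neural crest regulator, was dim (4.18 ± 0.5).

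Adrenal and neuroendocrine genes gave a partial picture. Of 23 genes of sympathetic neurons and chromaffin cells 10 were bright and 7 silent. TH, the rate-limiting enzyme of catecholamine synthesis, read 9.04, 8.62 and 8.87, CHGA of secretory granules read 7.78, 7.77 and 7.6 and PNMT, which makes adrenaline, read 6.54, 6.60 and 6.44. DBH, the enzyme between them, was silent (1.5, 1.73 and 1.69), as were PHOX2A (1.20 ± 0.0609), a factor that defines the lineage, and the vesicle carrier SLC18A1 (2.88 ± 0.346). HAND2 was dim at 5.82 ± 0.3. GATA3 (10.16 ± 0.0332), VGF (9.48 ± 0.0269), ISL1 (9.40 ± 0.157) and the noradrenaline transporter SLC6A2 (8.82 ± 0.15, 1 of 2 probes) were bright. Of 17 genes of the steroid-making cortex and gonad, 5 were bright and 3 silent. The defining genes of that list, NR5A1 (3.62 ± 0.395), STAR (4.25 ± 0.219) and CYP11A1 (6.03 ± 0.115), were dim. Among its bright genes, SCARB1 (15.29 ± 0.109), FDXR (14.55 ± 0.0801) and FDX1 (9.15 ± 0.167) also work in other cells.

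The study began from the growth hormone gene, and pituitary genes were measured here as a list. Of 19, 11 were bright and 3 silent. GH1 was dim and steady at 5.81, 5.71 and 5.75, while POU1F1, the factor Pit-1 that growth hormone expression requires, was silent (2.50, 2.38 and 1.34). PRL was dim at 3.81 ± 0.0766, FSHB silent at 1.54 ± 0.665 and POMC detected on 2 arrays (3.20, 2.04 and 3.56). TSHB (8.92 ± 0.137), the common hormone subunit CGA (9.57, 9.56 and 9.78) and LHB (8.80 ± 0.0679) were bright, as was the early pituitary factor PITX1 (13.27 ± 0.00672). LHX3 read 13.92 ± 0.159 by its brightest probe but 2.21 by the other. In the pancreas list 3 of 16 genes were bright and 6 silent, with INS dim at 4.88 ± 0.0573, GCG dim at 5.94 ± 0.141 and PDX1, PRSS1 and CPA1 silent at levels from 1.49 to 1.60. Of 10 thyroid and parathyroid genes only NKX2-1 (8.78 ± 0.0496) and FOXE1 (6.47 ± 0.233) were bright, while TG was dim and TSHR silent (1.14 ± 0.0564).

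Epithelial and mesenchymal markers were present together. Of 37 epithelial genes 25 (67.6%) were bright and 6 silent. Of 28 mesenchymal and fibroblast genes 15 were bright and 5 silent. VIM, vimentin, read 16.91, 16.79 and 16.78 and was the brightest intermediate filament gene, and the simple epithelial keratins KRT18 (14.10, 13.96 and 13.82) and KRT8 (11.51, 10.90 and 11.25) were bright beside it. EPCAM read 9.33, 9.35 and 9.38 and E-cadherin, CDH1, read 8.03, 8.11 and 7.94, while N-cadherin, CDH2, read 12.57, 12.43 and 12.57. ZEB1, a repressor of epithelial genes (11.12 ± 0.096), TWIST1 (8.20 ± 0.0357) and COL1A1 (9.37 ± 0.11) were bright, as were the desmosomal genes DSP (13.53 ± 0.125), PKP3 (12.65 ± 0.0858) and JUP (11.65 ± 0.0345). Matrix and receptor genes that mark fibroblasts, DCN (4.83 ± 0.26), LUM (4.66 ± 0.0614) and PDGFRA (6.22 ± 0.0706), were dim, and KRT19 lay just under the ERCC level at 6.28 ± 0.0998. Of all 53 keratin genes measured, 13 were bright and 19 silent, with a median level of 4.32 and a highest level of 14.18, above that of KRT18.

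**Figure D3:**
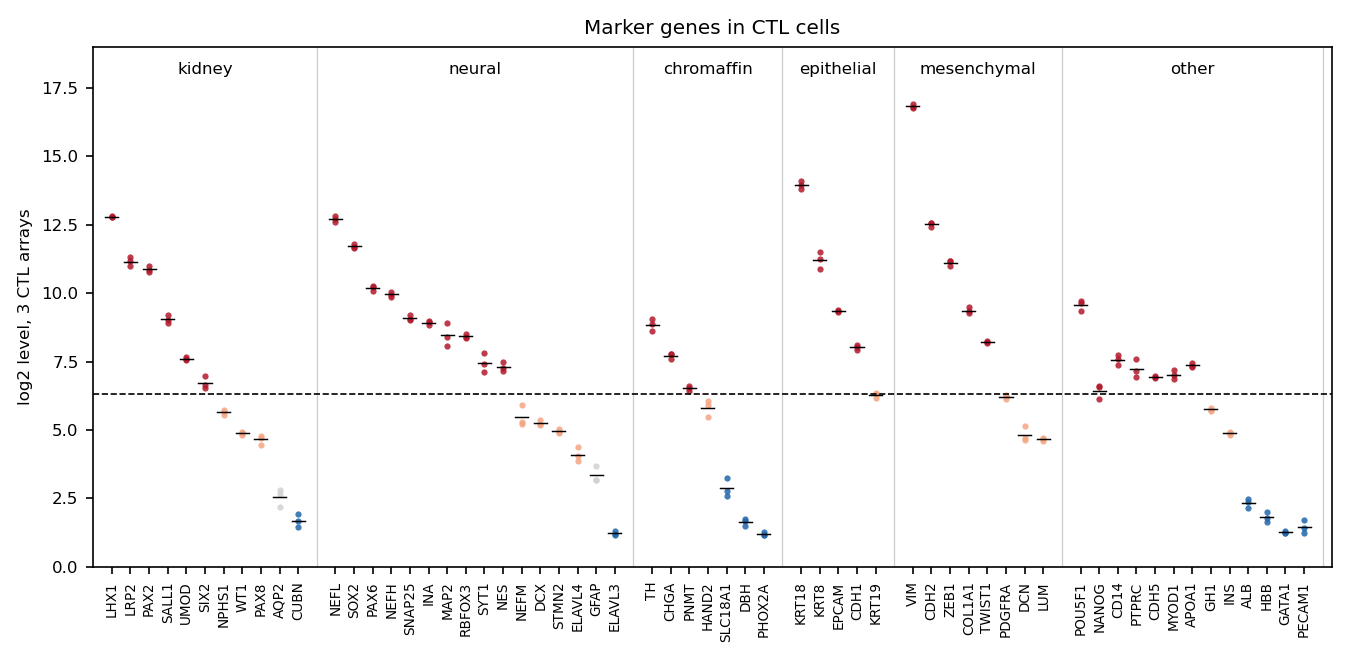
Log2 level (y axis) of marker genes on each of the 3 CTL arrays (points) with their mean (short bars), coloured by class as in the histogram of levels; the dashed line is the brightest ERCC control probe. Genes are ordered by level in every group but the last: VIM, KRT18, LHX1 and NEFL lie above 12, and CUBN, ELAVL3, PHOX2A, DBH and ALB lie below 3.

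Genes of other differentiated cells were mostly dim or silent. Among 30 liver genes 5 were bright and 13 silent, with ALB, albumin, at 2.14, 2.48 and 2.35, CYP3A4 dim at 5.65 ± 0.0665 and APOA1 bright by 1 of 2 probes (7.36 ± 0.0647). The bright liver genes included the forkhead factors FOXA1 (10.40 ± 0.0999), FOXA2 (8.12 ± 0.0555) and FOXA3 (6.96 ± 0.398), which other endodermal tissues share. Of 19 endothelial genes 5 were bright and 8 silent. The adhesion gene PECAM1 was silent by all 3 of its probes (1.46 ± 0.24), TIE1 was detected on 1 array (1.24, 1.24 and 3.01), VWF was dim (5.71 ± 0.0834) and CDH5 was at 6.95 ± 0.0342. Of 34 blood and immune genes 11 were bright. GATA1 (1.26 ± 0.051) and HBB (1.81 ± 0.186) were silent and CD3D (5.33 ± 0.217) was dim. CD14 (7.58 ± 0.192) and PTPRC (7.23 ± 0.327) were a little above the ERCC level, and CD4 (13.23 ± 0.109) and CD79A (11.26 ± 0.0755) were bright.

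Of 37 muscle genes 9 were bright, 18 dim and 9 silent, with MYOD1 at 7.02 ± 0.176, MYOG at 5.58 ± 0.266 and MYH6 at 3.83 ± 0.343. The brightest were NKX2-5, a factor of the early heart, at 16.06, 16.14 and 16.16, and TNNT1, slow troponin T, at 13.65, 13.61 and 13.76, each measured by 1 probe. In the list for bone, cartilage and fat 8 of 18 were bright, among them PPARG (9.66 ± 0.0563), LPL (9.73 ± 0.0494) and SP7 (7.69 ± 0.11), while ADIPOQ was silent (1.73 ± 0.308). Gut and lung genes were bright in 6 of 19 cases, with CDX2 detected on 1 array (1.76 ± 0.513) and the surfactant genes SFTPB (5.52 ± 0.174) and SFTPC (4.85 ± 0.218) dim. Of 21 genes of the eye and ear 6 were bright, led by OTOF (11.98 ± 0.0714). Of 10 placental genes CGA, PAPPA and TFAP2C were bright and 5, including PSG1 (1.23 ± 0.0386), silent.

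Genes of pluripotent cells were divided. Of 25, 11 were bright and 8 silent. POU5F1, the factor OCT4, read 9.36, 9.65 and 9.72 by its brightest probe and 4.35 by its other one, and NANOG lay at the ERCC level with 6.13, 6.59 and 6.59. LIN28B (13.96 ± 0.0982), which blocks let-7 maturation, DNMT3B (11.82 ± 0.114), UTF1 (10.79 ± 0.158) and the telomerase gene TERT (10.11 ± 0.0795) were bright, and KLF17 was the brightest at 15.89 ± 0.111, by 1 probe. Of 28 germ cell genes 4 were bright and 10 silent, with DDX4 silent (1.51 ± 0.34) and PRAME, a cancer-testis antigen, brightest (8.60 ± 0.0917). Of 15 measured MAGE-A, GAGE and XAGE family genes, only PAGE2B was bright (6.59 ± 0.0993, 1 of 2 probes) and 7 were silent.

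Families of developmental transcription factors were mostly at or below the share of bright genes found for all coding genes. Bright members made up 29 of 44 forkhead, 9 of 12 LIM-homeobox, 8 of 13 NK-like, 5 of 8 PAX, 7 of 14 POU, 8 of 16 T-box, 4 of 6 GATA, 4 of 6 IRX and 15 of 27 ETS genes. The LIM-homeobox family lay above the 67.6% of all coding genes, and the others named here lay below it. Within families the levels ran over most of the measured range. In the PAX family PAX2, PAX3 (10.34 ± 0.0547), PAX6, PAX1 (8.87 ± 0.0902) and PAX9 (8.64 ± 0.0548) were bright, PAX7 (5.71 ± 0.16) and PAX8 dim and the B cell factor PAX5 silent (1.90 ± 0.849). In the GATA family GATA6 (11.98 ± 0.144), GATA3, GATA4 (7.89 ± 0.212) and GATA2 (7.33 ± 0.0928) were bright, GATA5 was dim (5.04 ± 0.352) and the erythroid GATA1 was silent. In the IRX family IRX3 and IRX5 (10.73 ± 0.115) were bright while IRX1 was silent (1.15 ± 0.026). In the LIM-homeobox family LHX2 (11.57 ± 0.109) stood beside LHX1, and LHX5, its close relative, was silent (1.14 ± 0.0354).

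Cell surface receptors are of practical interest because HEK293 cells serve as hosts for cloned receptors. Of 38 aminergic, muscarinic and opioid receptor genes, 15 were bright and 7 silent. CHRM3, the M3 muscarinic receptor, often named as a natural receptor of this line, read 7.92, 8.03 and 8.04. ADRA2C (12.26 ± 0.0803), DRD4 (10.77 ± 0.131) and HTR7 (9.13 ± 0.0355) were bright. Of 26 receptors for nucleotides, adenosine and lysophospholipids, 7 were bright, namely ADORA2B (12.02, 12.19 and 12.10), S1PR2 (10.71 ± 0.123), P2RY1 (9.35 ± 0.127, by all 3 probes), S1PR3 (9.15 ± 0.219), LPAR1 (8.56 ± 0.0455), S1PR1 (8.48 ± 0.126) and P2RY2 (7.30 ± 0.115). Of 70 peptide hormone and chemokine receptors 19 were bright and 18 silent, with the galanin receptor GALR3 brightest at 14.90 ± 0.0484, F2RL1, the protease receptor PAR2, at 11.06 ± 0.136 and the chemokine receptor CXCR4 at 10.88 ± 0.0858. Downstream, 31 of 43 G protein subunits, arrestins and receptor kinases were bright, including GNAS, which stimulates adenylyl cyclase (16.80 ± 0.114), GNAI2, which inhibits it (13.92 ± 0.123), and GNB1 (13.87 ± 0.165). ADCY3 (12.93 ± 0.134) and ADCY9 (11.65 ± 0.159) were the brightest adenylyl cyclases.

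Of 58 receptor tyrosine kinase genes 37 were bright and 4 silent. IGF1R (12.08, 12.01 and 11.96) and INSR (10.70, 10.70 and 10.76), the receptors for insulin-like growth factor and insulin, were bright with little spread, as were ERBB2 (11.72 ± 0.129), FGFR1 (11.21 ± 0.149) and MET (12.77 ± 0.0408). EGFR read 7.70 ± 0.121, and only 1 of its 3 probes exceeded the ERCC level. Of 48 nuclear receptors 31 were bright, led by NR2F6 (15.73 ± 0.0447), NR2F2 (13.59 ± 0.115), the glucocorticoid receptor NR3C1 (13.08 ± 0.0788) and NR2F1 (12.97 ± 0.0591). ESR1 (7.56 ± 0.278) and PGR (7.81 ± 0.0744), the estrogen and progesterone receptors, were bright too, ESR1 by 1 of 3 probes.

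Ion channels are of interest for the same use of the line. Of 13 voltage-gated sodium channel genes 5 were bright, the highest being the auxiliary subunit SCN3B (9.10 ± 0.196) and SCN9A (8.33 ± 0.0841). Of 18 calcium channel genes 9 were bright, with CACNA1C at 10.25 ± 0.0879, by 2 of 4 probes. Of 40 potassium channel genes 13 were bright and 10 silent, with KCNH3 at 12.15 ± 0.207 and KCNG1 at 11.87 ± 0.0782. Among 54 TRP, acid-sensing, purinergic, mechanosensitive and anion channels 31 were bright, including LRRC8A, the volume-regulated anion channel (12.82, 12.64 and 12.67), ASIC1, the proton-gated channel (12.73, 12.55 and 12.86), and P2RX4 (12.07 ± 0.15).

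Sensors of microbes and foreign nucleic acid were uneven. Of 36, 13 were bright and 9 silent. TLR2 (1.34, 1.20 and 1.38) and TLR4 (1.88, 2.14 and 3.15) were silent, and TLR3, the sensor of double-stranded RNA, was dim at 5.69 ± 0.188. The DNA sensor CGAS was dim (4.72 ± 0.00999) although its adaptor STING1 was bright (10.91, 10.95 and 11.17). The RNA sensors RIGI (8.30 ± 0.252) and IFIH1 (8.98 ± 0.0565) and their adaptor MAVS (12.66 ± 0.0897) were bright. Of 13 type I interferon genes only IFNA4 was detected on all arrays (7.52 ± 0.184) and 10 were silent. Antigen presentation genes of class I were bright, with HLA-C at 14.81 ± 0.0836 and B2M at 13.37 ± 0.0642, while CIITA, the master regulator of class II, was dim (4.54 ± 0.305) and HLA-DRA was detected on 2 arrays (3.61 ± 0.163). Other class II genes were bright, such as HLA-DPA1 at 10.96 ± 0.147 and HLA-DPB1 at 9.71 ± 0.189, by all of their probes. These last were named after their values were seen. The probes of HLA genes may share target sequence, so their levels are uncertain.

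Of 23 measured drug-metabolising P450 and UGT genes 10 were bright, and of 30 drug transporters 10 were bright and 12 silent. CYP2W1, which is known from fetal gut and tumours, read 18.07, 18.15 and 17.99, and CYP1B1 (9.93 ± 0.0353) and CYP2J2 (9.24 ± 0.0335) were the next brightest of its list. ABCC5 (10.72 ± 0.134), the carnitine carrier SLC22A5 (10.65 ± 0.0565) and the multidrug pump ABCB1 (9.15 ± 0.175) were bright transporters.

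The large families used in single sensory or barrier tissues were mostly dim or silent. Of 353 olfactory receptor genes, 213 were silent, 57 were detected on 1 or 2 arrays, 67 were dim and 16 were bright, with a median level of 2.08. The brightest were OR2H1 (10.87 ± 0.23, but 1.13 by its other probe), OR10H2 (9.72 ± 0.271) and OR7E24 (9.38 ± 0.122). Bitter taste receptors were bright in 6 of 25 cases, beta-defensins in 5 of 29, chemokine ligands in 7 of 41, interleukins and their receptors in 8 of 44, and killer and leukocyte immunoglobulin-like receptors in 4 of 19. Keratin-associated proteins reached 26 of 82, and late cornified envelope and small proline-rich genes 8 of 27, with LCE1D at 16.05 ± 0.014. By chromosome, the share of bright coding genes ran from 55.6% on chromosome 11 to 78.4% on chromosome 15. Chromosome 11 carries many olfactory receptor genes, and without that family its share was 63.7%. The X chromosome stood at 59.1% of 718 genes.

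The promoters of bright and silent genes differed in composition. Promoter sequences, 250 bases before to 50 bases after the annotated start, were matched for 10058 bright and 1747 silent coding genes. The median ratio of observed to expected CpG was 0.842 in bright, 0.502 in dim, 0.320 in partly detected and 0.287 in silent genes. CpG islands, stretches rich in CpG, mark the promoters of broadly used genes. The letters GGGCGG, the GC box, stood on either strand in 70.3% of bright and 28.2% of silent promoters, against 44.6% of all promoters in the table. CCGGAAGT was found in 8.76% against 1.09% (4.44% of all), GCGCATGCG of NRF1 in 3.76% against 0.515% (2.10% of all) and TGACGTCA, the cyclic AMP response element, in 3.38% against 1.09% (1.98% of all). CCAAT showed no such gap, with 37.3% and 35.9% (35.7% of all). TATAAA on the gene's strand, between 40 and 15 bases before the start, ran the other way, with 2.00% of bright, 6.23% of dim and 8.76% of silent promoters (2.54% of all). These matches are descriptions of letters in a window, the motifs rich in C and G go with base composition, and the differences were not tested.

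Among the defining tissue genes, 12 held TATAAA at that place. Of the coding genes on the array with a promoter sequence, 3.61% held it there. How many defining genes have a sequence is not given here, so their count is not set against that share. ACTA1, an actin gene of these 12, was bright at 6.83. The windows of 4 of them, from 40 to 15 bases before the annotated start on the gene's strand with TATAAA in capitals, show the arrangement in genes that CTL cells left dim or silent.
INS, chr11:2161224-2161249, minus strand: gctctgagacTATAAAgccagcgggg
PRL, chr6:22297051-22297076, minus strand: tcaaaggttTATAAAgccaatatctg
FSHB, chr11:30230974-30230999, plus strand: catgattttgTATAAAaggtgaactg
PRSS1, chr7:142749432-142749457, plus strand: tcgtgaggTATAAAgacgagtcctcc
INS read 4.81, 4.90 and 4.92, PRL 3.83, 3.72 and 3.87, FSHB 1.19, 2.31 and 1.12 and PRSS1 1.78, 1.13 and 1.71. The letters are thus present both before genes with a steady dim signal and before genes with none.

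**Figure D4:**
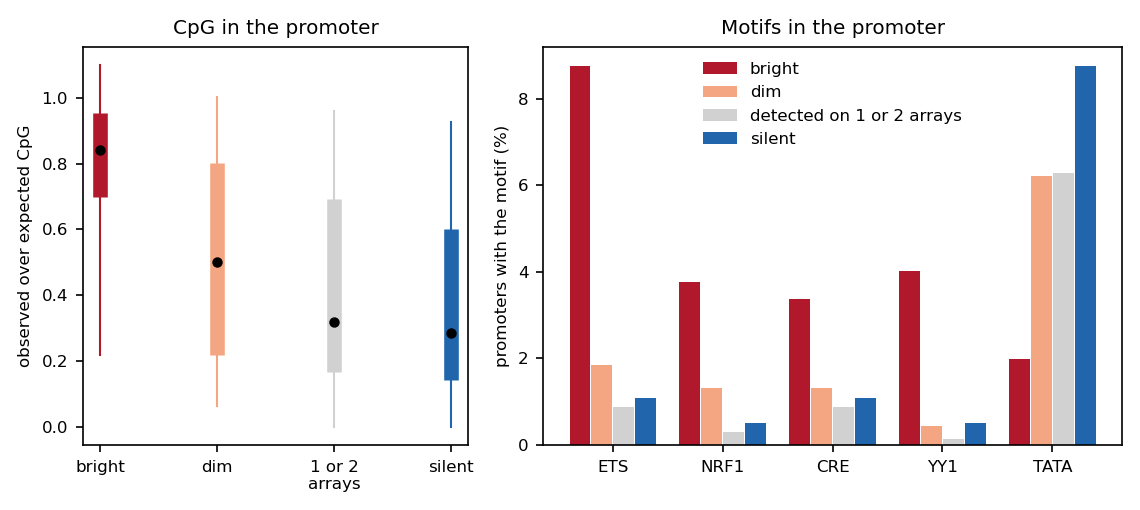
Left: ratio of observed to expected CpG (y axis) in promoters of coding genes by detection class (x axis), with the median (point), the middle 50% (thick bar) and the 5th to 95th percentile (line). Right: share of promoters that hold each motif (y axis, percent); ETS, NRF1, CRE and YY1 letters are most frequent before bright genes and TATA letters before silent ones.

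The spread between the CTL arrays depended on the level. Among detected probes the median SD over the 3 arrays was 0.196 for levels from 4 to the ERCC level and fell to 0.0814 above 14. The largest SD of a detected gene was that of CMA1, mast cell chymase, which read 9.43, 5.12 and 6.59, with a single high array, and 1.66 by its other probe. HEPN1 (4.43, 6.55 and 4.52), PLEK of blood cells (5.68, 4.47 and 3.38), ARHGAP29 (3.91, 6.08 and 5.04), PGAP4 (7.11, 5.65 and 5.04) and THPO, thrombopoietin (6.64, 5.33 and 4.62), came next. SLC12A8 (SD 1.03), GPR32 (SD 1.02), CLRN1 (SD 0.998) and PLVAP (SD 0.972) completed the 10 most variable genes. All but CMA1 and PLVAP had a mean below the ERCC level, so differences between arrays concerned mostly dim genes.

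Several bright names rested on 1 probe out of several. Of 4925 genes with at least 2 probes, 3863 were bright by some probe and 2655 by every probe, and 489 had a brightest probe more than 5 log2 units above the next. C5orf63 read 18.74, 18.65 and 18.74 by its brightest probe, but 1.76 by the next, and ZNF865 read 18.8 against 5.79. GPR155 (18.5 against 7.69) and AS3MT (18.2 against 7.98) showed the same gap, so 4 of the 25 brightest names depend on 1 probe that the gene's other probes do not match. SLC66A1 (18.55 ± 0.0163) and the non-coding FAM74A4 (18.45 ± 0.0667) have no further probe to set beside them.

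The CTL state was then compared with the knock-down cells, to see which members of the lists and families differ from it. The 2 comparisons share the CTL arrays. The gene's brightest probe over all 9 arrays was tested with limma over all tested probes, and a call needed an adjusted p under 0.05 and a fold of at least 1.8. Of 16083 tested genes, 1.28% were higher and 3.16% lower in KD3, and 1.42% were higher and 4.27% lower in KD4. Of the 1571 tested members of all lists and families, 20 (1.27%) were higher and 73 (4.65%) lower in KD3, and 28 (1.78%) were higher and 80 (5.09%) lower in KD4. The median log2 difference of the members was -0.02 in KD3 and 0.02 in KD4, against -0.01 in both for all tested genes. None of the 78 cytosolic ribosomal protein genes, the 76 mitochondrial ribosomal genes or the 14 constitutive proteasome genes was called in either. Of 46 tested pan-neuronal genes, 8 were lower in KD3 and 6 in KD4, with median log2 differences of -0.32 and -0.23, and 1 was higher in KD4. Of 29 tested genes of neural progenitors and radial glia, 0 were lower in KD3 and 1 in KD4, and 1 was higher in KD4. Of 36 tested G protein subunits, arrestins and receptor kinases, 5 were lower in KD3 and 6 in KD4, with medians of -0.07 and 0.02. Of 24 tested potassium channels, 6 were lower and 3 higher in KD3, and 4 were lower and 2 higher in KD4. These are examples from many lists, and no list was tested as a set.

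Members called in the same direction in both knock-downs numbered 11 higher and 56 lower, where 0.889% and 2.44% of all tested genes were called so. PAX2 read 10.79, 11 and 10.85 in CTL, 8.54, 8.46 and 8.45 in KD3 and 8.27, 8.21 and 8.20 in KD4. All knock-down arrays lay below all CTL arrays, with log2 differences of -2.40 (standard error 0.0743, adjusted p = 2.05e-06, limma) and -2.65 (standard error 0.0743, adjusted p = 4.74e-07). GDNF, the kidney and neural growth factor that signals to the ureteric bud, read 8.55, 8.59 and 8.77 in CTL, 7.17, 6.83 and 6.87 in KD3 and 6.80, 6.83 and 6.76 in KD4. The groups did not overlap, and the differences were -1.69 (standard error 0.103, adjusted p = 2.4e-05, limma) and -1.84 (standard error 0.103, adjusted p = 1.38e-05). NEFH moved the other way, from the CTL values given above to 12.26, 12.29 and 12.09 in KD3 and 12.38, 12.39 and 12.37 in KD4, with differences of 2.25 (standard error 0.08, adjusted p = 2.34e-06, limma) and 2.42 (standard error 0.08, adjusted p = 9.68e-07). Again no array overlapped. RBFOX3 read 8.39, 8.35 and 8.52 in CTL and fell to 5.92, 5.94 and 5.89 in KD3 and 6.42, 6.14 and 6.42 in KD4, with differences of -2.51 (standard error 0.0925, adjusted p = 3.01e-06, limma) and -2.10 (standard error 0.0925, adjusted p = 3.95e-06).

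Other members that were lower in both knock-downs come from many tissues. They include CGA (-2.52 and -2.28), the neurotrophin receptor NTRK2 (-2.21 and -2.17), the epithelial factor OVOL2 (-1.50 and -2.01), the water channel AQP4 (-1.48 and -1.67), IL21R (-1.55 and -1.90), HLA-DQA1 (-1.44 and -1.87) and the potassium channel KCNH2 (-1.63 and -1.46), with the log2 difference from CTL in KD3 first and in KD4 second. GATA5 (-2.12 and -2.58), the liver enzyme TDO2 (-1.89 and -1.80) and CLDN11 (-1.57 and -1.55) were dim in CTL. GATA5 and TDO2 were not well above background on any knock-down array, nor was CLDN11 on any KD4 array. Their differences there are therefore not measured folds. GATA5 had a mean of 5.04 in CTL, 2.92 in KD3 and 2.46 in KD4, and TDO2 of 3.63, 1.74 and 1.84. CLDN11 had a mean of 4.37 in CTL and 2.82 in KD4. Silent probes reached 3.47 in CTL, so the size of a fall to such levels is uncertain, most of all for TDO2. Besides NEFH, the higher members were the tetraspanin TSPAN12 (1.56 and 1.51), the ETS factor ETV5 (1.98 and 2.71), IL7 (1.76 and 1.85) and KCNA4 (1.46 and 1.86). IL7 was silent in CTL with a mean of 1.96 and read 3.72 in KD3 and 3.81 in KD4, so the size of its rise is uncertain too. ETV5 and KCNA4 were detected on 2 of 3 CTL arrays. GATA5, TDO2 and CLDN11 entered the test only through CTL, and IL7, ETV5 and KCNA4 only through the knock-downs, the group or groups in which they were high, so their calls are given as a description. Every other gene named in this and the preceding paragraph had an adjusted p of at most 0.00176 in both comparisons (limma, Benjamini-Hochberg). The genes named are 18 of the 20 members with the largest change by the smaller of their differences. With normexp background correction of the scanner signals GATA5, TDO2, IL7, CLDN11, KCNA4 and HLA-DQA1 passed in neither comparison and ETV5 and IL21R did not pass in KD3. With the methods' t-test and adjustment ETV5, TDO2, CLDN11, IL21R, KCNA4 and HLA-DQA1 passed in neither comparison and NTRK2, GATA5 and IL7 did not pass in KD3. Within slide 2 alone GATA5, TDO2, CLDN11, IL21R, KCNA4 and HLA-DQA1 did not pass in KD3, and within slide 1 alone TDO2 did not pass in KD4.

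**Figure D5:**
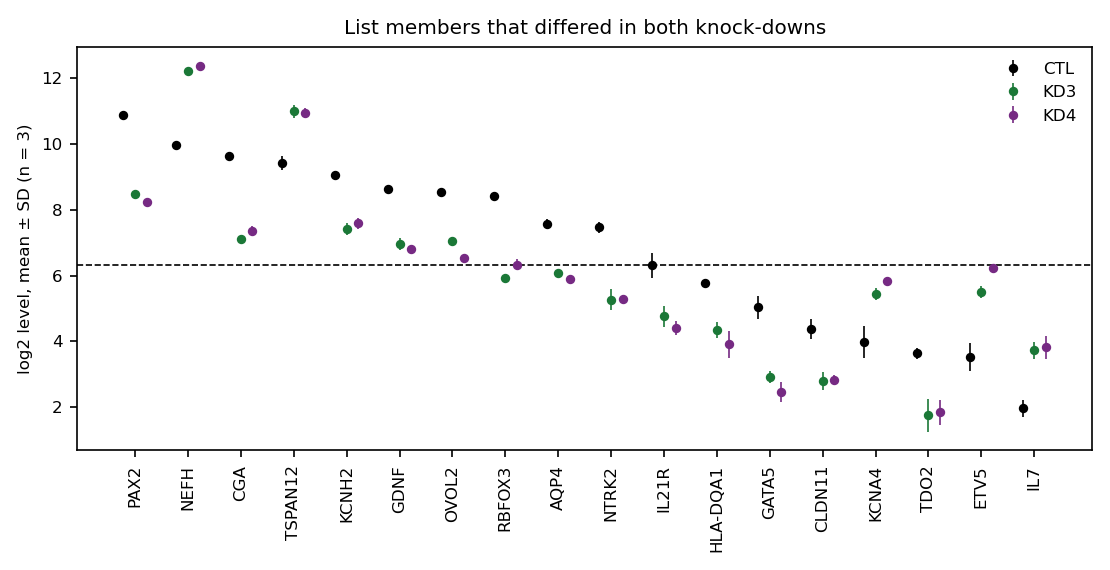
Log2 level (y axis, mean ± SD of 3 arrays) in CTL (black), KD3 (green) and KD4 (purple) of 18 of the 20 list members with the largest difference in both knock-downs, ordered by CTL level; the dashed line is the brightest ERCC control probe. NEFH, TSPAN12, KCNA4, ETV5 and IL7 lie higher in the knock-downs and the other 13 lower.

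Most genes were detected or silent alike in all groups. Of the 2618 genes silent in CTL, 1973 were silent on all 6 knock-down arrays as well, and 15 (0.573%) were detected on all 6. Of the 15833 genes detected in CTL, 15388 were detected on all 6 knock-down arrays and 34 (0.215%) were silent on all of them. None of those 34 was bright in CTL, and 12809 of the 12810 bright genes were detected on all 6 knock-down arrays.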

How the data were processed

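The authors measured total RNA of the 9 cell samples on one-color 60K arrays of Agilent design 028004, and the scanner files hold spot intensity values made with Feature Extraction 10.10.1.1, per the file headers. The authors deposited log2 values of the same arrays, which they had quantile normalized in GeneSpring 11.5.1 according to the submitters' notes. These log2 values gave every level, and the well-above-background flags of the scanner files, with a probe's flagged outlier spots left out, gave detection. A probe counted as detected on an array when at least 0.5 of its spots carried the flag. Probe accessions were named through RefSeq (GRCh38.p14), and 25422 of 42405 non-control probes received a gene symbol. Groups were compared with limma 3.58.1 in R 4.3.3 on all 9 arrays, with group means, empirical Bayes moderation and Benjamini-Hochberg adjustment over the 32293 probes detected on all arrays of at least 1 group. The scripts used Python 3.11.15 and were tested on simulated data. Named genes were the 25 brightest, the defining and up to 6 further bright members of each list, the 20 members most changed in both knock-downs (18 shown), the 10 most variable and SMCHD1. The members and lists were chosen with earlier results of these data known. Alternatives covered the detection rule, normalization, background correction, probe choice, dim-probe filter, test, slide, replicate number and each array. The ERCC level was added after seeing the data. Some genes that the rule names are not reported here. RefSeq promoters are annotated, not measured, starts.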

Additional observations from a re-analysis of the deposited data

Results flagged for a closer look

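Among the 20 list members most changed in both, only 1 passed the test of KD4 against KD3. Members that did not pass may still differ, as ETV5 rose by 1.98 in KD3 and 2.71 in KD4. OVOL2, an epithelial zinc finger factor, fell in both, with log2 differences from CTL of -1.504 and -2.013, and the difference between the knock-downs was -0.51 (adjusted p = 0.0363, limma test of KD4 minus KD3). The targeted gene differed in the same direction. For SMCHD1 the KD4 level minus the KD3 level was -0.58 (limma, adjusted p = 0.0131), with 3 of 3 KD4 arrays below all KD3 arrays. Whether the change of OVOL2 follows the depth of the knock-down was not tested.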

How the results depend on the processing

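The number of genes detected in CTL was 15833 and ran from 12810 (above the brightest ERCC control probe) to 17423 (significant against local background) over the detection rules, and from 15872 to 16048 with 1 CTL array left out. Detected list members ran from 1020 to 1860 around 1513, and within lists the ERCC level moved the count by more than 1.5 times in 41 of 82 lists and families, while the 95th percentile of the ERCC probes moved 7 of 82. Muscle genes, for example, numbered 27 detected, 21 above the 95th percentile and 9 above the brightest ERCC probe, and chemokine ligands 22, 17 and 7. Looser rules moved 14 of 82 (significant against local background) and 12 of 82 (99th percentile of negative control spots). Under both, detected proximal tubule genes rose from 13 to 22 of 24 and collecting duct genes from 8 to 13 of 17. Steroidogenic cortex and gonad genes rose from 11 to 17 of 17. Which tubule and cortex genes count as silent thus depends on the flag used. Of the 25 brightest genes, 15 remained when all probes of a gene were averaged, 23 with normexp and 21 to 25 with 1 array left out. The KD3 count of 714 called genes became 297 with normexp, 224 with the methods' t-test and adjustment, 451 within slide 2 and 4120 without a fold threshold. The KD4 count of 914 became 394, 441, 600 (within slide 1) and 5580 under the same kinds of change. A slide held 1 or 2 arrays of a group, and a lone array was assumed to vary like the other groups. Leaving out 1 array gave 672 to 737 genes in KD3 and 842 to 973 in KD4. Scaling to the 75th percentile called 298 genes higher and 548 lower in KD4, so that 64.8% of calls were lower, against 228, 686 and 75.1% in the deposited values. Of 42 differences of named genes, 16 passed no longer with normexp, 18 with the adjusted t-test, 2 within slide 1 and 6 within slide 2, and none changed direction under any alternative in which it was tested. Same-numbered arrays of different groups correlated at -0.08 to 0.14 in their deviations, and other pairs at -0.14 to 0.14. This gave no clear sign that the numbers pair the arrays, but with 3 arrays in a group it cannot exclude pairing. A replicate block gave 717 and 917 calls. Dim genes overlap in level with the brightest ERCC probes, but those between 5.26 and 6.33 lie above all but 1 of the 96.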
